A study of Homo sapiens with 9 samples.

Results

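The genes described here code for proteins that choose splice sites: the SR proteins, the hnRNP proteins, and a small set of other splicing regulators with the CLK kinases. They were taken by symbol. A gene was included if its symbol was SRSF followed by a number, began with HNRNP, or was TRA2A, TRA2B, PTBP1, PTBP2, PTBP3, TIA1, TIAL1, RBFOX2, MBNL1, MBNL2, CLK1, CLK2, CLK3 or CLK4. This gave 51 of the 18970 genes in the count tables: 12 SR genes, 25 hnRNP genes, 2 TRA2 genes, 3 PTB genes, 2 TIA genes, 3 RBFOX and MBNL genes and 4 CLK genes.

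SR proteins bind exonic enhancers through RNA recognition motifs and recruit the spliceosome through an arginine- and serine-rich tail, which the CLK kinases phosphorylate in the nucleus. hnRNP proteins coat new transcripts, and many of them repress the exons that SR proteins favour. Several genes of both families are known to limit their own output by splicing an exon with a premature stop into their mRNA, which nonsense-mediated decay (NMD) then removes.

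The measurements were SLAM-seq libraries of cranial neural crest cells (CNCCs) differentiated from the human embryonic stem cell line H9 and used at passage 4. In every library both SOX9 alleles carried an FKBP12-F36V degron with mNeonGreen and a V5 tag, and the cells came from 2 edited clones, S9CC13 and S9CC47. Addition of 500 nM dTAGV-1, which directs the tagged protein to a ubiquitin ligase, defined the groups 0h (vehicle), 3h and 24h, for which the labels give relative SOX9 levels of 100%, 0% and 0%. The treatment protocol names DMSO as the vehicle control, but the labels list 500 nM dTAGV-1 for the 0h samples too, with a treatment time of 0h. Cells took up 4-thiouridine (100 uM) for the last 2 h of each treatment. The label is read as C in place of T, and reads that carry such a change (T>C reads) mark RNA made in that window. Each group held 3 samples, 1 from each of the cultures S9CC13_R6, S9CC47_R5 and S9CC47_R6 (clone and differentiation batch). No cells without the tag were analysed here, so effects of dTAGV-1 itself and of SOX9 loss cannot be told apart. In such bulk samples, fewer cells of a type and less RNA per cell cannot be told apart either.

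Libraries held 16955633 to 28782678 total reads and 3130673 to 5475800 T>C reads. T>C reads made up 15.9% (S9CC13_R6 at 3h) to 21.3% (S9CC47_R6 at 24h) of a library. All 12 cranial neural crest markers examined, including TWIST1, TFAP2A and PAX3, reached a mean of 1 CPM (counts scaled to the library total) at each time. Summed over the 12, the 0h libraries had 3764 to 3907 CPM, the 3h libraries 4135 to 4553 and the 24h libraries 4998 to 5483. SOX9 was 1 of the 12, and its own transcript averaged 764 CPM at 0h and 1754 at 24h. Among 6 pluripotency markers, LIN28A and DPPA4 were present, while POU5F1, NANOG, ZFP42 and TDGF1 stayed below 1 CPM. Summed, these 6 reached 350 to 414 CPM at 0h, 304 to 349 CPM at 3h and 281 to 306 CPM at 24h. Of the 5 chondrocyte markers, COL2A1 and COL9A1 were present and ACAN, MATN1 and COMP were below 1 CPM, with sums of 340 to 372 CPM at 0h, 312 to 354 at 3h and 173 to 226 at 24h. The 5 neural markers summed to 76.5 to 79.5 CPM at 0h, 76.8 to 90.5 CPM at 3h and 56.6 to 76.1 CPM at 24h, with TUBB3 present and SOX1 at 0 reads in every library. ELAVL3 lay at 0.562 to 1.19 CPM and reached a mean of 1 CPM at 24h only, while SOX2 and PAX6 stayed below 1 CPM. Endothelial, blood and epithelial markers stayed below 1 CPM. The part of these shifts in the results below was not tested.

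The 3′ UTRs of these genes differ in sequence elements known to affect mRNA stability. The sites below come from 3′ UTRs of canonical transcripts in GENCODE release 44 (hg38), 5′ to 3′ on the transcript strand, with the motif in capitals. They are shown because MBNL1 and CLK4 had the highest T>C shares and HNRNPA1 1 of the lowest, while SRSF1, SRSF7, CLK2 and HNRNPA2B1 were called in total reads at 24h. Only 1 site is printed for each gene, and MBNL1, HNRNPA1, SRSF1, CLK2 and HNRNPA2B1 hold more. Neither motif was found in CLK1 and PTBP2, with high shares, or in HNRNPA1L2 and HNRNPM, with low shares. HNRNPA3, HNRNPAB and HNRNPF, also called in total reads at 24h, hold neither as well.
MBNL1, chr3:152463298-152463322, plus strand: gtagtgtaaTATTTATgcatactat
HNRNPA1, chr12:54286490-54286514, plus strand: ttgccctttTATTTATcttcctttg
SRSF1, chr17:58001741-58001765, minus strand: gactgctccTATTTATagtctcaga
SRSF7, chr2:38743676-38743700, minus strand: tggcaggctTATTTATctgttgcac
CLK4, chr5:178603485-178603510, minus strand: acagttaagTGTAAATAttgtatgtt
CLK2, chr1:155263060-155263085, minus strand: gtgaaatagTGTAAATAtgaaagaac
HNRNPA2B1, chr7:26191681-26191706, minus strand: attaaattaTGTAGATAacttaaggg
The letters searched were TATTTAT, a core of AU-rich elements, and TGTANATA, the Pumilio motif, on the transcript strand only. The motifs can share letters, as they do in PTBP1. TATTTAT was held by 20 of 47 members with at least 50 mean total reads (42.6%), against 37.1% of 11465 3′ UTRs of all tested genes. TGTANATA was held by 19 of 47 (40.4%), against 31.6%. UTRs that hold a motif are longer: for TATTTAT the median was 2581 bases in members that hold it and 1051 in those that do not. Members with TATTTAT had a median T>C share at 0h of 28.2% and members without it 21.1%. Over all tested genes these medians were 34.3% and 22.6%. For TGTANATA the medians with and without it were 24.8% and 23.5% in members, and 34.3% and 23.6% over all tested genes. A letter match is a description and says nothing of binding. Sites can lie far from the annotated transcript end, as in MBNL1, where the printed motif starts at base 941 of 3414. Which 3′ ends the measured mRNAs used was not examined.

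At 0h the members covered a wide range of level. A 3′ end library yields about 1 read per transcript end, so CPM was not divided by length. The 47 members with at least 50 mean total reads together took 1.85% ± 0.0771 of all reads (SD, n = 3), of which the 21 hnRNP genes took 1.27% ± 0.0524 and the 12 SR genes 0.366% ± 0.0187. HNRNPK, a poly(C)-binding hnRNP, was the most abundant at 2269, 2312 and 2265 CPM in S9CC13_R6, S9CC47_R5 and S9CC47_R6. HNRNPDL, whose protein shuttles between nucleus and cytoplasm, followed with 1388, 1483 and 1428 CPM, and HNRNPA1, the best known splicing repressor of the family, with 979.5, 1225 and 1072 CPM. SRSF11 was the most abundant SR gene, at 965, 897 and 937 CPM. It overlapped HNRNPC, which binds uridine tracts and stood at 860, 1008 and 927 CPM. The median over hnRNP genes was 537 CPM, over SR genes 223 CPM and over CLK genes 29.3 CPM. The median of all 11710 genes tested for total reads was 23.8 CPM.

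Of the members with fewer reads, HNRNPCL3 and HNRNPCL4 had 0 reads in every library, which allows up to 0.104 to 0.177 CPM depending on the library (3 counts). HNRNPCL2 had 3 reads in all, in S9CC47_R6 at 3h and 24h. HNRNPCL1 had 11 to 61 reads a library and passed the filter for total reads only, which leaves 47 members tested in T>C reads and shares and 48 in total reads. These genes are near-identical copies of HNRNPC, and the study's mapping kept reads with several matches, so their reads, like those of the HNRNPA1 copy HNRNPA1L2, may belong to the parent gene.

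The T>C share of a gene divides T>C reads by total reads of that gene in the same library, in percent. It rises with the fraction of the mRNA that is less than 2 h old. It also depends on the number of T bases read and includes background conversions, since no unlabelled library was analysed here. At 0h the share of the 47 members ran from 8.38% to 68.3%, and the median of all tested genes was 27.1%. Family medians differed, while single genes of a family could lie far apart.

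Most of the low end were hnRNP genes. Their median share was 16.7%, and 18 of 21 lay below the median of all genes. HNRNPA1L2 was lowest at 7.84%, 9.41% and 7.89% in S9CC13_R6, S9CC47_R5 and S9CC47_R6, and its parent gene HNRNPA1 had 8.60%, 9.81% and 9.06%. HNRNPUL2, a relative of the nuclear scaffold protein hnRNP U, had 8.71%, 9.53% and 9.54%. HNRNPM had 9.91%, 12.9% and 10.3%, and HNRNPA2B1, an RNA-binding protein that also sorts RNAs for transport, 10.9%, 11.6% and 10.9%. These 5 genes overlapped in part, and each of their 15 values was below 13%. HNRNPF and HNRNPLL stood apart from the rest of their family. HNRNPF, which binds G-rich tracts, had 43.6%, 41.4% and 44.2%, and HNRNPLL, known for CD45 splicing in lymphocytes, 43.1%, 37.7% and 43.7%. HNRNPA0 was the third hnRNP gene above the median of all genes, at 27.7% ± 0.867 (SD, n = 3).

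The SR genes lay in the middle, with a median of 27.3%, and 5 of 12 were below the median of all genes. SRSF9 was lowest at 16.6% ± 0.587 and SRSF12 highest at 38.8% ± 2.75 (SD, n = 3). TRA2A and TRA2B, activators that bind GA-rich exonic enhancers, had nearly equal shares of 28.3% ± 1.03 and 28.8% ± 1.72. The 3 PTB genes, which repress exons through pyrimidine tracts, were far apart: PTBP1 had 13.4% ± 0.905, PTBP3 26.8% ± 1.78 and PTBP2, the form best known from neurons, 55.6% ± 2.01. The order PTBP2, PTBP3, PTBP1 held without overlap between the 3 cultures. TIA1 and TIAL1, which bind uridine-rich sequence beside 5′ splice sites, had 31.1% ± 1.41 and 36.2% ± 0.602.

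The CLK genes and MBNL1 were the high end. MBNL1, which controls developmental exon switches, had 69.6%, 68.5% and 66.7%, at percentile 98.2 of all tested genes. CLK4 had 58.9%, 70.9% and 59.2%, and CLK1 had 52.7%, 67.6% and 65.2%. In both, S9CC47_R5 was highest, and both overlapped MBNL1. CLK3 had 50.3%, 51.4% and 50.8%, and CLK2 42.5%, 48.3% and 45.8%. MBNL2 had 75.5%, 55.6% and 41.7%, but from only 81 to 120 total reads a library at 0h. RBFOX2, which binds UGCAUG, was far lower than both MBNL genes at 20.4% ± 0.960 (SD, n = 3). Of the 46 neighbouring pairs in the order of mean shares, 38 overlapped between cultures. The 8 that did not included PTBP2 over CLK3, CLK3 over CLK2, TIAL1 over SRSF6 and PTBP1 over HNRNPD.

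**Figure D1:**
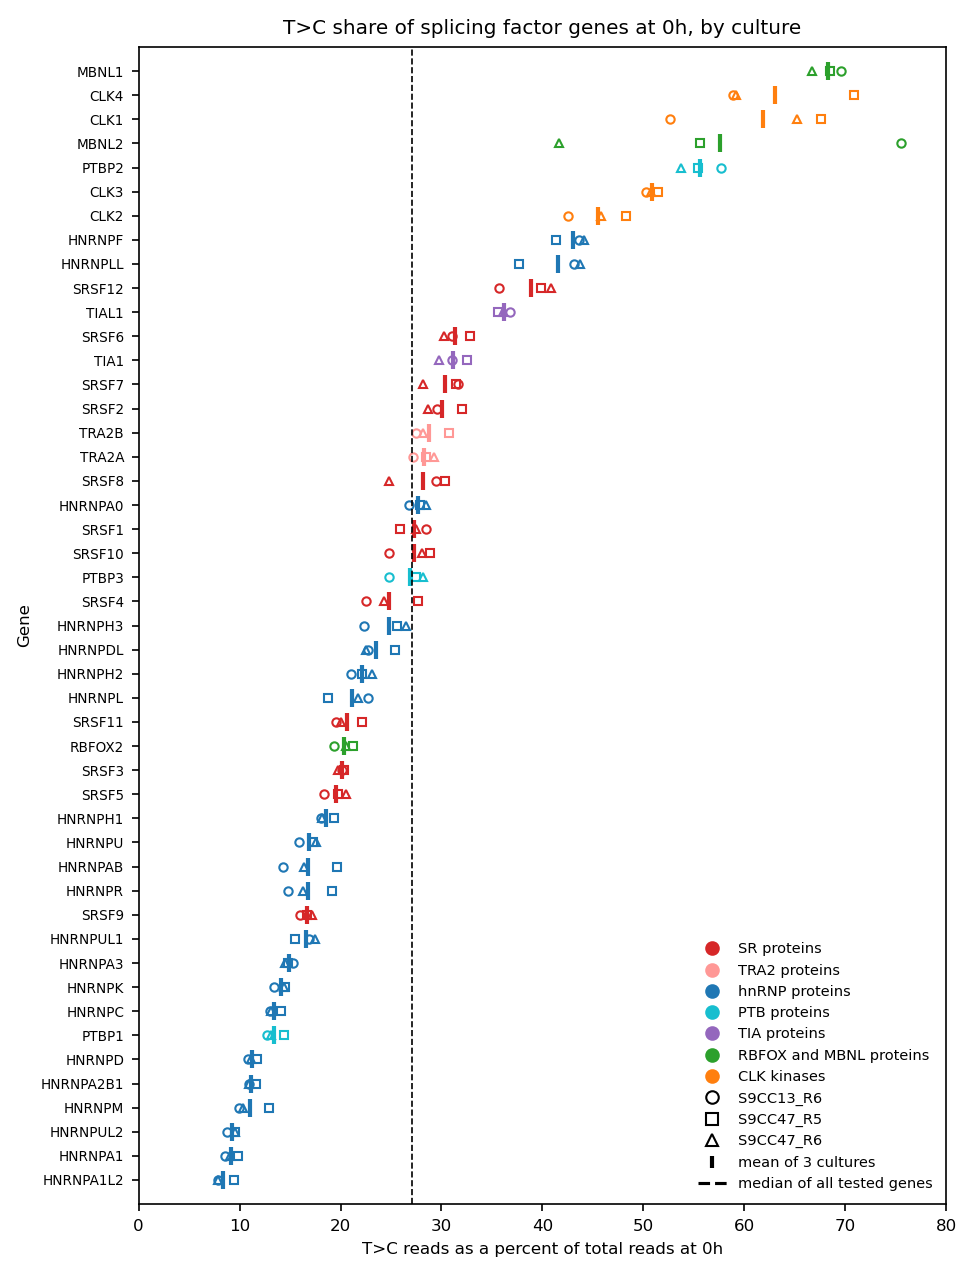
T>C reads as a percent of total reads at 0h (x axis) for each of the 47 members with at least 50 mean total reads (y axis, ordered by mean). Open symbols are the 3 cultures, vertical ticks their mean, colours the gene families and the dashed line the median of all tested genes at 27.1%. Most genes at the low end are hnRNP genes, and the CLK genes, the MBNL genes and PTBP2 are at the high end.

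Members with a higher level had a lower share: Spearman's rho was -0.72 across 47 genes, against -0.24 across all 11710 tested genes. These sets are unlike in level, with medians of 220 and 23.8 CPM. Among members, hnRNP genes were high in level and low in share and CLK genes the reverse. Total reads are also the denominator of the share. T content of the last 150 transcript bases, a stand-in for the number of convertible bases, ranged from 27.3% to 48.0% in members and had a rho of 0.04 with the share (47 genes), against 0.36 across 11470 genes. The rho with 3′ UTR length was 0.03 in members and 0.30 across 11469 genes. Genes in 1 library share its depth and labelling and are not independent replicates, so these values are descriptions.

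**Figure D2:**
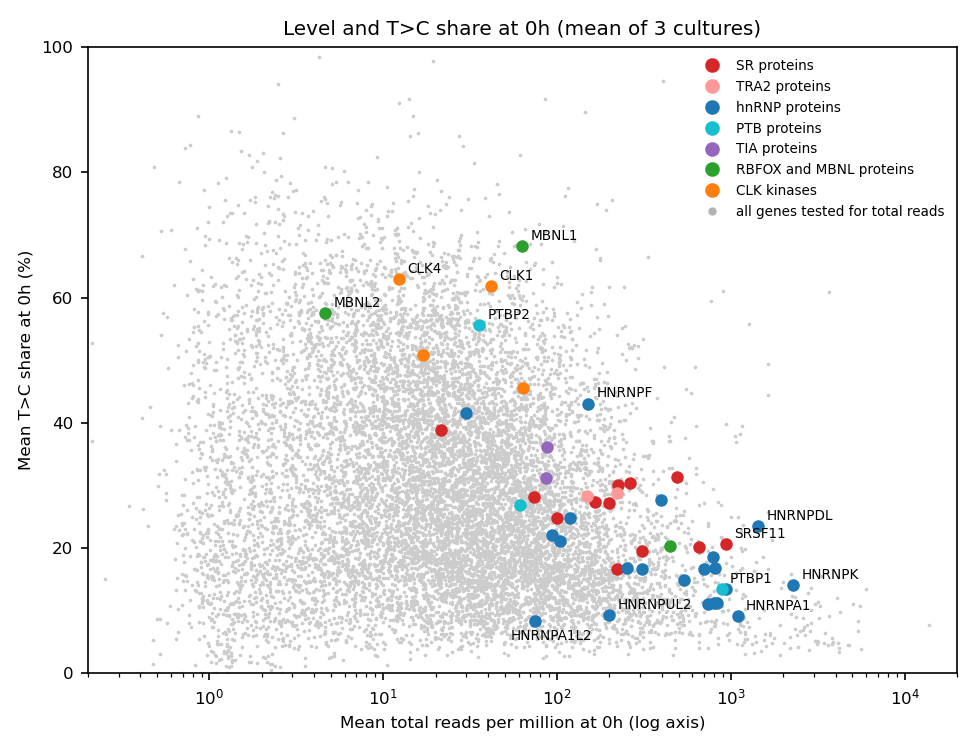
Mean total CPM at 0h (x axis, log scale) against mean T>C share at 0h (y axis, percent) for the 47 members (coloured by family) and for all genes tested for total reads (grey); each point is the mean of 3 cultures. HNRNPK and HNRNPA1 combine high level with a low share, and MBNL1, CLK1 and CLK4 lower level with a high share. HNRNPDL has a high level with a share of 23.5%, near the middle of the members.

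The family order held in each library. The median share of SR genes exceeded that of hnRNP genes in 9 of 9 libraries, by 7.89 to 12.2 percentage points, and the median of CLK genes exceeded that of SR genes in 9 of 9, by 21.8 to 31.7 points. SR genes were above the median of all genes in only 5 of 9 libraries. All groups moved with the library: hnRNP genes had a median of 16.3% ± 0.965 at 0h, of 14.8% ± 1.17 at 3h and of 17.2% ± 0.815 at 24h, and the median of all genes 27.0% ± 1.07, 24.7% ± 2.38 and 28.2% ± 1.23 (SD, n = 3 each). The CLK median was 55.3% ± 4.01, 48.4% ± 4.73 and 56.2% ± 5.02.

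**Figure D3:**
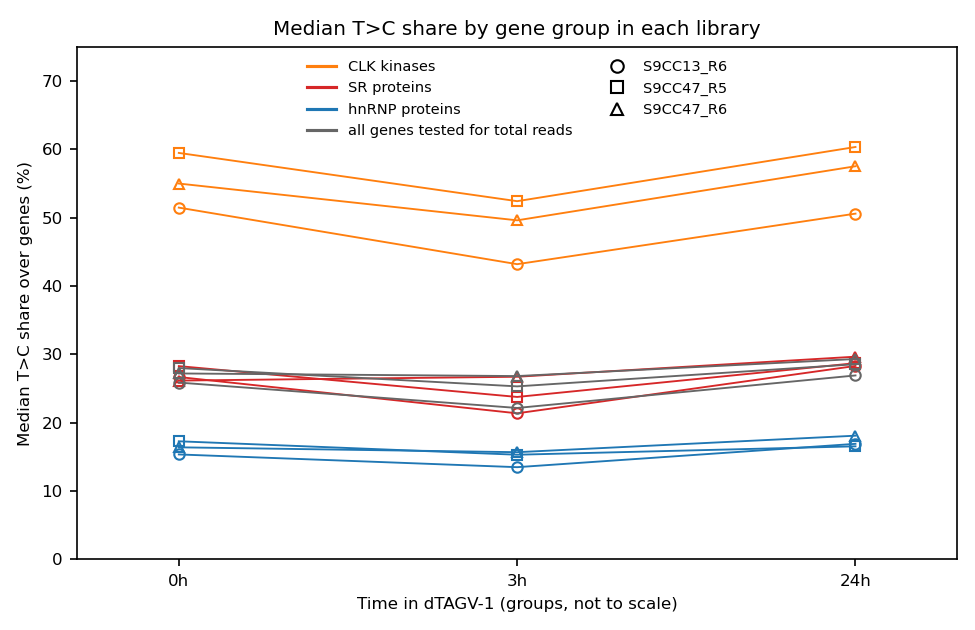
Median T>C share over the genes of a group (y axis, percent) in each library at 0h, 3h and 24h of dTAGV-1 (x axis, groups not to scale); lines join the samples of 1 culture. The CLK, SR and hnRNP medians keep their order in all 9 libraries, and S9CC13_R6 at 3h is low in each group, as in all genes.

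Whether a gene's share changed relative to its library was tested with T>C and unconverted reads of all 9 samples in 1 DESeq2 model (threshold 10% false discovery rate, here and below). None of the 47 members tested was called at 3h against 0h, at 24h against 0h or at 24h against 3h. At an unadjusted DESeq2 p under 0.05 there were 1, 4 and 5 of 47 members, beside 487, 484 and 924 of 11561 genes. The alternative, limma on log2 odds, called 0 of all genes in each comparison and so says nothing about the members. Among 11561 genes, the shares called by DESeq2 were 0.32%, 0.0173% and 0.891%. SRSF4 had the largest positive change of the odds at 24h against 0h among members other than MBNL2, with a log2 value of 0.41 (SE 0.154, DESeq2 adjusted p = 0.966), and SRSF1 the most negative, with -0.41 (SE 0.130, adjusted p = 0.747). For 37 of 47 members the 95% interval of the change at 24h against 0h lay within 0.5 on the log2 scale, and for 41 of 47 at 3h against 0h. With 1 size factor per library in place of 1 per read kind, 7 members were called at 24h against 3h, while calls over all genes went from 103 to 570.

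At 3h, RBFOX2 was the only member called in T>C reads (1 of 47, against 1.79% of 12037 genes). Its normalised T>C reads (counts divided by DESeq2 size factors) in S9CC13_R6, S9CC47_R5 and S9CC47_R6 were 1937, 1969 and 1980 at 0h, 1459, 1635 and 1736 at 3h, and 1703, 1775 and 1856 at 24h. All 3 cultures were lower at 3h and at 24h than at 0h, without overlap. At 3h this was a log2 fold change of -0.26, with SE 0.0799 and a DESeq2 adjusted p of 0.0746. The value of -0.20 at 24h (SE 0.0830) did not pass, with an adjusted p of 0.206. The call at 3h was lost with the culture as a replicate block (adjusted p = 0.199) and without any 1 culture (adjusted p of 0.583 to 1). RBFOX2 lies at chr22:35738736-36028824 on the minus strand, and its last exon, with a 3′ UTR of 5469 bases, at chr22:35738736-35744249.

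No other member was called at 3h. Of 47, 43 had a 95% interval of the T>C change within 0.5 on the log2 scale, and the exceptions were MBNL2, CLK3, HNRNPAB and HNRNPUL2. MBNL2, with the fewest reads, had -0.58 (95% interval -1.34 to 0.17). The median change was -0.04 over members and -0.01 over all genes. In total reads at 3h, 0 of 48 members were called by DESeq2 and by edgeR, against 1.89% of 11710 genes called by DESeq2. At an unadjusted DESeq2 p under 0.05 there were 3 of 48 members, beside 962 of 11710 genes.

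At 24h, 3 of 47 members were called in T>C reads, against 4.98% of 12037 genes. SRSF7 and HNRNPF rose, beside 2.38% of all genes called higher. SRSF11 fell, beside 2.59% called lower. SRSF7, an SR protein with a zinc knuckle that also takes part in mRNA export, had normalised T>C reads of 1623, 1884 and 1648 at 0h, 1666, 1962 and 1802 at 3h, and 2164, 2135 and 2333 at 24h (S9CC13_R6, S9CC47_R5 and S9CC47_R6). All 24h values lay above all 0h and 3h values. The log2 fold change was 0.32 (SE 0.0877, DESeq2 adjusted p = 0.0112), and 0.37 with the replicate block (adjusted p = 0.0154).

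HNRNPF had normalised T>C reads of 1110, 1768 and 1267 at 0h, 855, 1312 and 1902 at 3h, and 2220, 1782 and 2724 at 24h. The 24h values lay above those at 0h, but the S9CC47_R5 samples were nearly equal, and the 3h values overlapped both. The log2 fold change was 0.42 (SE 0.115, DESeq2 adjusted p = 0.0116). It was 0.70 with the replicate block, where the call was lost (adjusted p = 0.221), and 0.15 without S9CC13_R6.

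SRSF11, whose protein contacts U2AF, had normalised T>C reads of 4208, 4079 and 4120 at 0h, 3329, 3958 and 3669 at 3h, and 3328, 3696 and 3616 at 24h. All values at 3h and 24h lay below those at 0h. The fall at 24h was -0.25 on the log2 scale, with SE 0.0821 and a DESeq2 adjusted p of 0.0563. The 3h value of -0.17 (SE 0.0788) had an adjusted p of 0.606. The replicate block gave -0.22 at 24h and lost the call (adjusted p = 0.182). Without S9CC13_R6 or S9CC47_R6, none of the 3 T>C calls at 24h was kept, and SRSF7 and HNRNPF were called without S9CC47_R5.

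HNRNPAB had the largest T>C change at 24h, a log2 fold change of 0.47 (95% interval -0.01 to 0.95), and did not pass in the main fit (DESeq2 adjusted p = 0.39). The replicate block, edgeR, the fit without a surrogate variable and the fit without S9CC47_R5 did call HNRNPAB. SRSF3 had 0.23 (SE 0.0830, adjusted p = 0.122). The CLK genes had values of -0.0045 for CLK1, -0.24 for CLK2, -0.23 for CLK3 and -0.21 for CLK4, and none passed (DESeq2 adjusted p of 0.343 to 0.996). Between 3h and 24h themselves, 0 of 47 members were called in T>C reads by DESeq2, against 1.14% of all genes. At an unadjusted DESeq2 p under 0.05 there were 4 of 47 members, beside 980 of 12037 genes. There edgeR called HNRNPAB, and the replicate block called HNRNPAB and TRA2B.

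**Figure D4:**
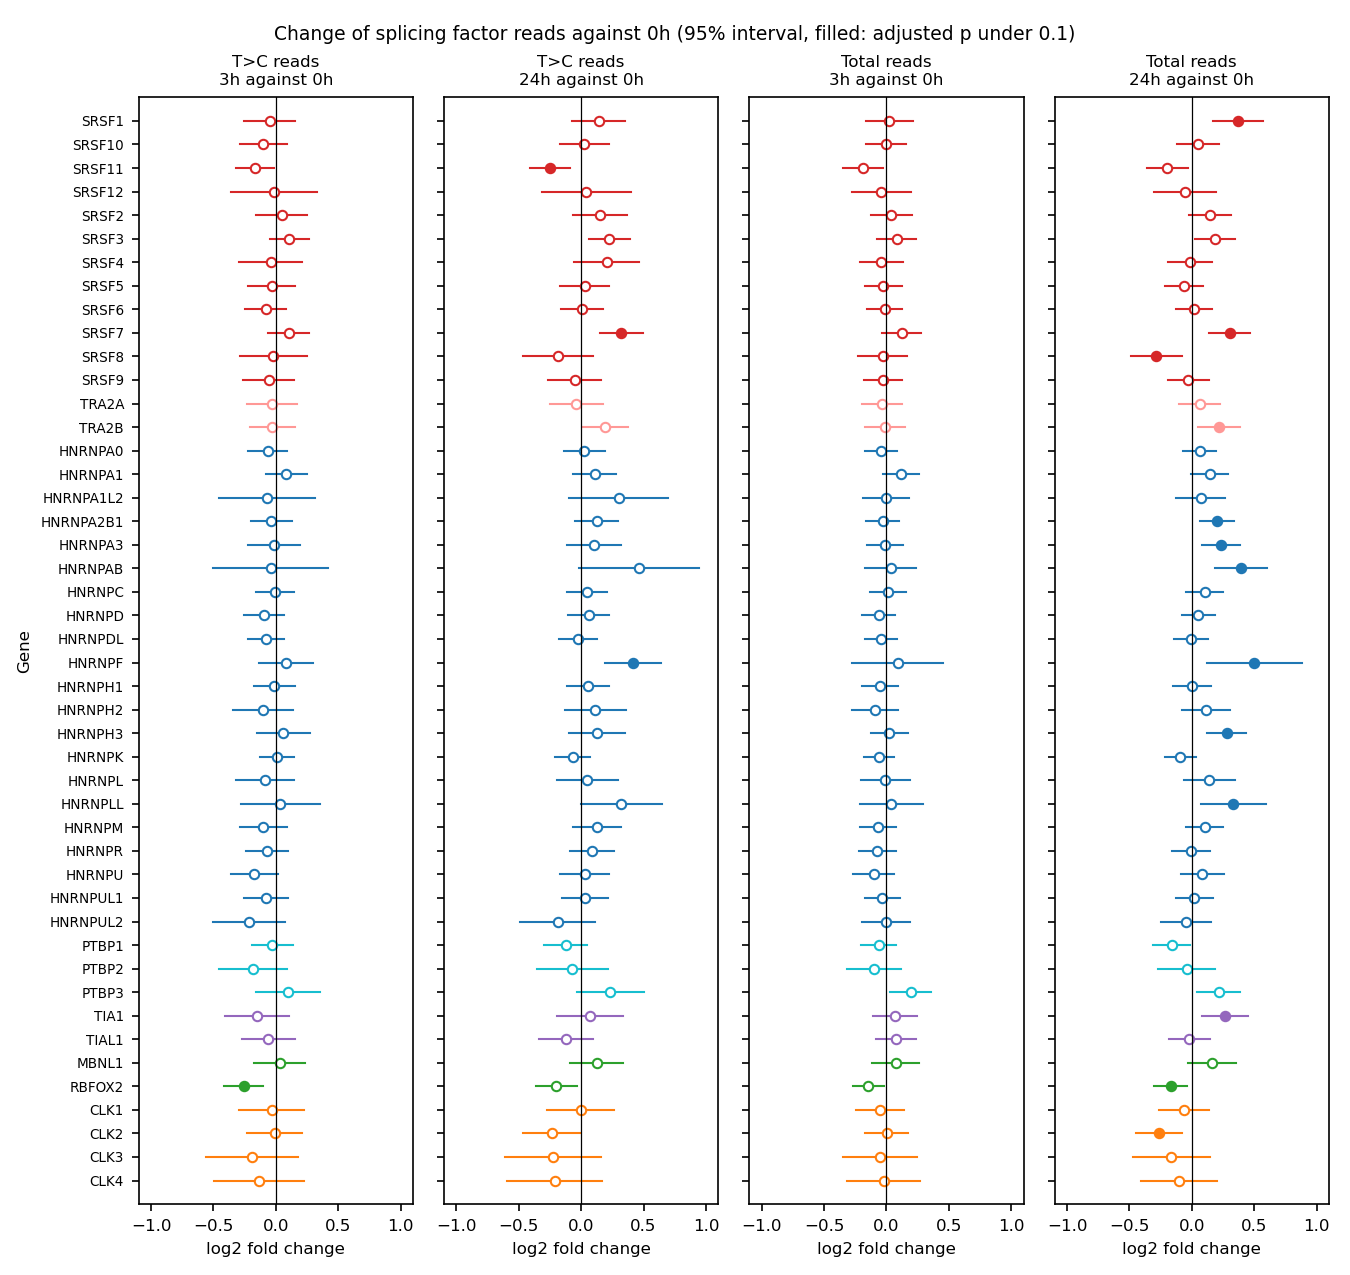
Log2 fold change against 0h (x axis) with its 95% interval for members ordered by family (y axis), for T>C and total reads at 3h and 24h; filled points passed an adjusted p of 0.1 in DESeq2. HNRNPCL1 and MBNL2, which have few reads and wide intervals, are left out. Filled points are 1 at 3h (RBFOX2), 3 in T>C reads at 24h and 13 in total reads at 24h.

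Total reads at 24h held most of the calls: 13 of 48 members, against 15% of 11710 genes. Of these, 10 rose (7.11% of all genes were called higher) and 3 fell (7.85% were called lower). The hnRNP genes accounted for 6 calls of 22, all higher, and had a median change of 0.10 on the log2 scale, and the SR genes for 3 of 12, with a median of 0.00. The median over all members was 0.06 and over all genes 0.00. Calls depended on the samples included. Without S9CC13_R6 at all times 0 of the members were called (163 of all genes), and without only its 3h library, an alternative chosen after seeing the data, also 0 (574 of all genes), against 1751 of all genes with every sample. Some fitted values stayed about as large when the call was lost: without S9CC13_R6 and without its 3h library, CLK2 had -0.23 and -0.27, TIA1 0.20 and 0.27, and RBFOX2 -0.20 and -0.18 on the log2 scale. The fit without S9CC47_R6 could not be made. The replicate block called 8 (1717 of all genes), namely HNRNPA2B1, HNRNPA3, HNRNPAB, HNRNPH3, HNRNPLL, PTBP3, SRSF7 and TRA2B. Within batch R6 alone (without S9CC47_R5) 7 were called (788 of all genes), of which HNRNPAB, HNRNPF, SRSF1, SRSF7 and TRA2B were among the 13. Batch R5 held 1 sample a time, so it gives no value of its own.

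SRSF1, a founding member of the SR family, had normalised total reads of 2901, 4755 and 3166 at 0h, 2124, 3116 and 4934 at 3h, and 5215, 4452 and 8068 at 24h (cultures in the same order as before). The S9CC47_R5 sample was lower at 24h than at 0h and the other two cultures higher, so the groups overlapped. The fitted log2 fold change was 0.37 (SE 0.101, DESeq2 adjusted p = 0.00482). It was 0.68 with the replicate block (adjusted p = 0.225) and 0.71 with no surrogate variable (adjusted p = 0.35), and -0.36 without S9CC13_R6. Its last exon, chr17:58000919-58005600 on the minus strand, overlaps an annotated gene on the same strand, ENSG00000266086.

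HNRNPF varied between libraries in a like way, with normalised total reads of 2463, 4538 and 2918 at 0h, 1924, 2966 and 4903 at 3h, and 5634, 4361 and 7536 at 24h. Its groups also overlapped, and S9CC47_R5 was again the culture that was not higher at 24h. The log2 fold change was 0.50 (SE 0.194, DESeq2 adjusted p = 0.0755), 0.82 with the replicate block (adjusted p = 0.177) and -0.36 without S9CC13_R6. TRA2B had 4147, 5790 and 4513 normalised total reads at 0h, 3722, 4618 and 5256 at 3h, and 5856, 5555 and 7198 at 24h. Here too S9CC47_R5 alone was not higher at 24h. The fit gave TRA2B 0.22 on the log2 scale, SE 0.0852, with a DESeq2 adjusted p of 0.0757, and 0.37 with the replicate block (adjusted p = 0.0504), and -0.17 without S9CC13_R6. The surrogate variable in the main model, which stands for variation shared by many genes, was furthest from 0 in S9CC13_R6 at 3h (0.67) and in S9CC47_R6 at 24h (-0.59). SRSF1, HNRNPF and TRA2B were lowest in the first of these libraries and highest in the other. So were HNRNPA3, HNRNPH3 and HNRNPA2B1, which are described below. The part of this shared variation in their changes was not tested. The negative values of SRSF1, HNRNPF and TRA2B without S9CC13_R6 are fitted values, from a surrogate variable estimated anew in 6 samples. In those samples the mean normalised reads of all 3 genes were higher at 24h than at 0h.

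In SRSF7 and the remaining called hnRNP genes, each culture was higher at 24h than at 0h. SRSF7 had normalised total reads of 4971, 6372 and 5952 at 0h, 5576, 6285 and 6414 at 3h, and 7103, 7163 and 8280 at 24h, with all 24h values above all others. Its log2 fold change was 0.30 (SE 0.0838, DESeq2 adjusted p = 0.00547), and 0.39 with the replicate block (adjusted p = 0.00328). The call was lost without S9CC13_R6, at 0.16 (adjusted p = 1), and without the 3h library of that culture, at 0.22 (adjusted p = 0.357). SRSF7 was the only member called in both T>C and total reads at 24h with and without the block. Its last exon lies at chr2:38743599-38745187 on the minus strand.

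HNRNPAB, a binder of DNA and AU-rich RNA, had 5459, 5827 and 5391 normalised total reads at 0h, 6527, 4671 and 5922 at 3h, and 7725, 6286 and 8388 at 24h. The 24h group did not overlap the 0h group, while 3h overlapped both. The log2 fold change was 0.39 (SE 0.108, DESeq2 adjusted p = 0.00497), 0.41 with the replicate block and 0.01 without S9CC13_R6. The last exons of HNRNPAB (chr5:178210553-178211163, plus strand) and HNRNPA3 overlap a gene on the opposite strand, PHYKPL and NFE2L2.

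HNRNPH3, a small relative of HNRNPF, had 2483, 2893 and 2442 normalised total reads at 0h, 2185, 2597 and 2885 at 3h, and 3033, 3376 and 3877 at 24h. HNRNPA3 had 11033, 13271 and 10915 at 0h, 9747, 10521 and 13317 at 3h, and 14054, 13953 and 17169 at 24h. Every 24h value of both genes exceeded each of their 0h and 3h values. The log2 fold changes at 24h against 0h were 0.28 for HNRNPH3 (SE 0.0794, DESeq2 adjusted p = 0.00732) and 0.23 for HNRNPA3 (SE 0.0779, adjusted p = 0.0332), and 0.39 and 0.35 with the replicate block. Without S9CC13_R6 the fit gave 0.14 and -0.07, although HNRNPA3 had more normalised reads at 24h than at 0h in both remaining cultures.

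HNRNPA2B1 had 16507, 20214 and 17580 normalised total reads at 0h, 15449, 18144 and 18034 at 3h, and 19809, 22059 and 24077 at 24h. It was higher at 24h in each culture, but S9CC13_R6 at 24h lay below S9CC47_R5 at 0h. HNRNPLL had 543, 713 and 709 at 0h, 664, 560 and 752 at 3h, and 821, 840 and 933 at 24h, with the 24h values above all others. The log2 fold changes were 0.20 for HNRNPA2B1 (SE 0.0694, DESeq2 adjusted p = 0.0392) and 0.33 for HNRNPLL (SE 0.133, adjusted p = 0.0911), and without S9CC13_R6 0.09 and 0.12. TIA1, also a stress granule protein, had 2068, 1805 and 1783 at 0h, 2080, 1768 and 2107 at 3h, and 2342, 2184 and 2205 at 24h. All its 24h values were above the others, and the fitted log2 change was 0.27, with SE 0.0938 and a DESeq2 adjusted p of 0.0462. The replicate block gave 0.25 for TIA1 and lost the call (adjusted p = 0.108).

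CLK2, SRSF8 and RBFOX2 fell. CLK2 had normalised total reads of 1429, 1330 and 1403 at 0h, 1356, 1381 and 1394 at 3h, and 1148, 1111 and 1262 at 24h. The 24h values were below all others. SRSF8, an SR gene annotated with 1 exon, had 1668, 1539 and 1659 at 0h, 1497, 1715 and 1511 at 3h, and 1236, 1339 and 1499 at 24h, all 24h values below those at 0h. RBFOX2 had 9693, 9829 and 9815 at 0h, 8106, 8720 and 9314 at 3h, and 8873, 8649 and 9455 at 24h. Its 0h values were the highest, and 3h and 24h overlapped. The log2 fold changes at 24h were -0.26 for CLK2 (SE 0.0924, DESeq2 adjusted p = 0.0438), -0.28 for SRSF8 (SE 0.105, adjusted p = 0.0586) and -0.17 for RBFOX2 (SE 0.0672, adjusted p = 0.0876). Without S9CC13_R6, SRSF8 had -0.10. All 3 calls were lost with the replicate block, at -0.24 (adjusted p = 0.138), -0.26 (adjusted p = 0.145) and -0.12 (adjusted p = 0.424).

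**Figure D5:**
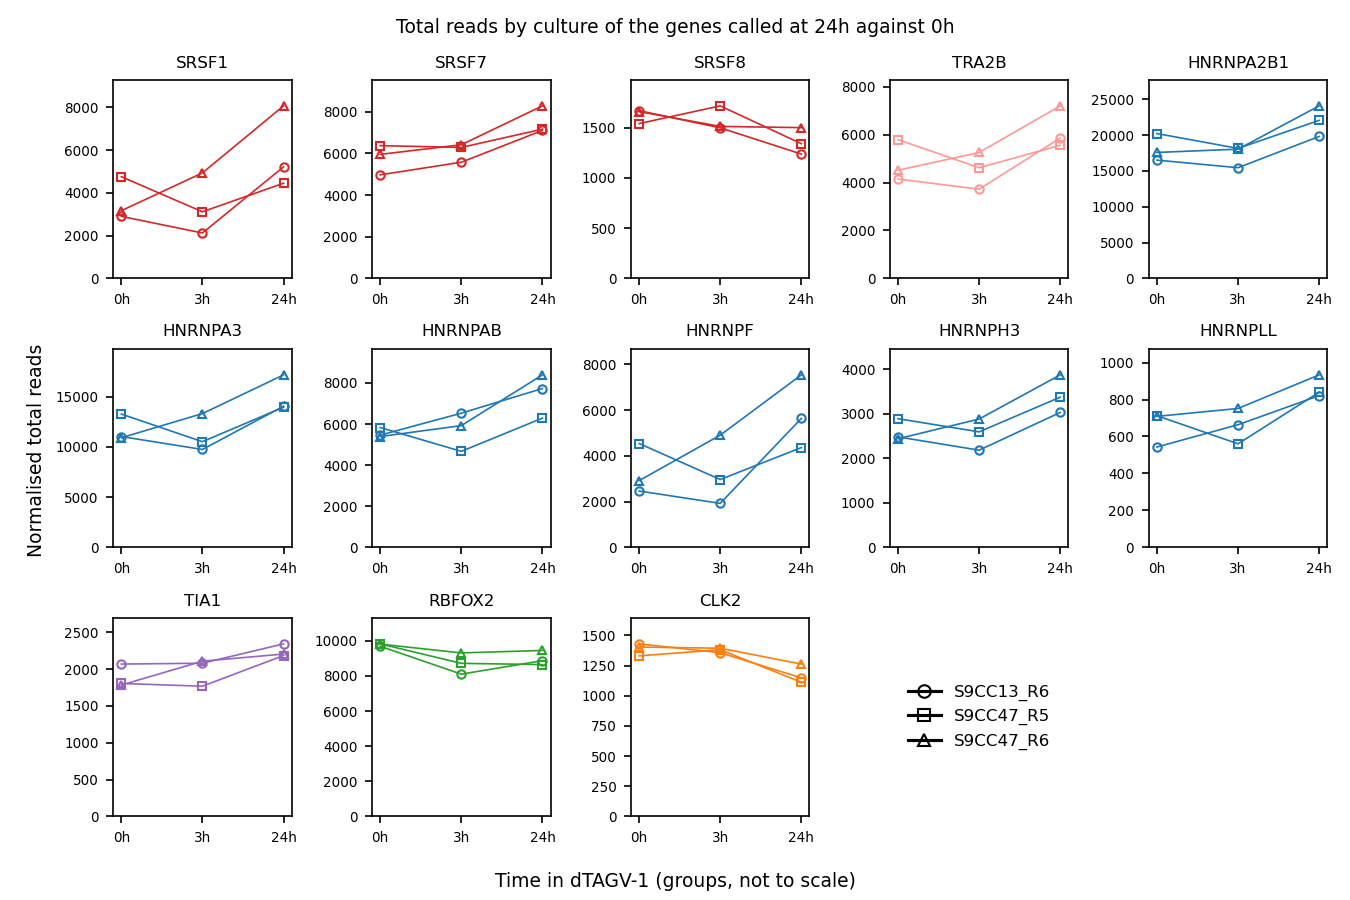
Normalised total reads (y axis, from 0) of the 13 members called at 24h against 0h, by time (x axis, groups not to scale); symbols and lines mark the 3 cultures and colours the families. SRSF7, HNRNPA3, HNRNPH3, HNRNPLL and TIA1 have all 24h samples above all others, while in SRSF1, TRA2B and HNRNPF the culture S9CC47_R5 is not higher at 24h.

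None of the other CLK genes passed in total reads. CLK1, itself known for an mRNA pool with retained introns, had log2 fold changes of -0.05 at 3h and -0.06 at 24h (95% interval at 24h -0.26 to 0.14). Its normalised total reads were 909, 891 and 923 at 0h, 911, 832 and 902 at 3h, and 916, 849 and 808 at 24h. CLK4 had 285, 243 and 277 at 0h, 258, 240 and 289 at 3h, and 257, 242 and 264 at 24h, and CLK3 had 353, 322 and 444, then 315, 354 and 396, then 377, 308 and 345. The intervals at 24h were -0.47 to 0.15 for CLK3 and -0.40 to 0.20 for CLK4. PTBP1 and PTBP3 had values of opposite sign at 24h, -0.16 and 0.21, and neither passed (DESeq2 adjusted p = 0.152 and 0.103). HNRNPK, the most abundant member, had -0.09 (95% interval -0.22 to 0.04), and HNRNPA1 0.14 (-0.01 to 0.29).

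Between 3h and 24h, 5 of 48 members were called in total reads, all higher at 24h, against 5.39% of all genes called and 2.51% called higher. They were SRSF1 (log2 fold change 0.35, SE 0.108), HNRNPAB (0.36, SE 0.115), HNRNPH3 (0.26, SE 0.0847), HNRNPA3 (0.24, SE 0.0831) and HNRNPA2B1 (0.23, SE 0.0741), with DESeq2 adjusted p of 0.036 to 0.0716. Each was higher at 24h than at 3h in 3 of 3 cultures, and the groups overlapped for SRSF1 and HNRNPAB. The replicate block called 10 members there, without SRSF1 (adjusted p = 0.122) and with SRSF7, TRA2B, HNRNPH2, HNRNPL, HNRNPLL and HNRNPU in addition. Without S9CC13_R6, 0 members were called. Without S9CC47_R5, and also without the 3h library of S9CC13_R6, only HNRNPAB was called.

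As shares of all reads, SR genes took 0.366% at 0h, 0.361% at 3h and 0.395% at 24h, and were higher at 24h than at 0h in 3 of 3 cultures, by a ratio of 1.01 to 1.17. The hnRNP genes took 1.27%, 1.24% and 1.40%, higher at 24h in 2 of 3 cultures, with ratios of 0.991 to 1.21. The CLK genes took 0.0134%, 0.0133% and 0.0124%, lower at 24h in 3 of 3 cultures, with ratios of 0.909 to 0.928.

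Other parts of the splicing machinery were set beside these genes. Among 49 core spliceosome genes, T>C reads were called for 0 at 3h and 1 at 24h, and total reads for 0 at 3h and 6 at 24h, 1 higher and 5 lower, with a median change at 24h of -0.05. Over all genes, 1.79% and 4.98% were called in T>C reads at 3h and 24h, and 1.89% and 15% in total reads, so 6 of 49 in total reads at 24h, and 6 of 36 in the next list, are near that background. SF3B2, a subunit of the U2 snRNP, was the T>C call, at -0.28 on the log2 scale, with SE 0.0819, and a DESeq2 adjusted p of 0.0263. Its level in total reads was 563 CPM at 0h and 496 CPM at 24h. Among other splicing regulators, 2 of 37 were called in T>C reads at 24h and 6 of 36 in total reads, 3 in each direction. QKI, which binds ACUAA-type motifs, rose by 0.40 in T>C reads (SE 0.122, DESeq2 adjusted p = 0.036), and its level in total reads was 121 CPM at 0h and 179 CPM at 24h. SRRM4, the activator of neural microexons, fell by 1.95 in T>C reads (SE 0.425, DESeq2 adjusted p = 0.000356), and its level in total reads was 8.60 CPM at 0h and 2.07 CPM at 24h.

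Genes that act on SR proteins or on transcripts with premature stops were counted in the same way, beside 1.79% and 4.98% of all genes called in T>C reads at 3h and 24h and 1.89% and 15% in total reads. Lists this short allow no reading of such counts. Of 5 SR protein kinase and import genes tested, 0 were called in T>C or total reads at 3h or 24h, with 0 or 1 at an unadjusted p under 0.05 in each. Of 14 genes of NMD and the exon junction complex, 0 were called in T>C reads at either time, and 1 was called in total reads at 24h, lower, with a median change of -0.01. At 0h their median T>C shares were 31.1% and 23.7%, against 17.8% for 49 core spliceosome genes, of which 41 lay below the median of all genes.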

How the data were processed

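The authors trimmed read 1 of QuantSeq 3′ libraries, mapped it to hg38 with slamdunk v0.4.3 keeping reads with several matches, and deposited 2 tables of raw counts per gene, total and T>C reads, for 9 samples. All 9 columns of each table were used and 0 value columns were left out. The counting regions and their strand are not given in the sources used here, so overlapping genes cannot be told apart. Library totals are in the report. PCR reads carried no molecular identifiers, so the limits given for 0 reads cover counting error only.

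Counts were fitted with DESeq2 1.42.0 in R 4.3.3 over all 9 samples with time, batch and 1 surrogate variable (sva 3.50.0), following the study's design, at an adjusted p of 0.1. Genes needed 1 CPM in at least 3 samples. T>C shares were tested as T>C against unconverted reads with a sample term. All p-values were adjusted over all genes tested. Alternatives used edgeR 4.0.16, limma 3.58.1, TMM factors, no surrogate variable, no filter, a replicate block and each culture left out. The scripts were tested on simulated data. Other tools were python 3.11.15, pandas 2.3.3 and scipy 1.17.1.

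Samples carry clone and batch in their names, which pairs them across times by culture. Deviations of same-named samples from their group means had a mean correlation of 0.125 in T>C reads (0.0283 to 0.248) and 0.278 in total reads (-0.0473 to 0.604). Replicates are cultures of 2 clones of 1 line, so p-values apply to these cultures only. In the main fits of reads they measure the spread left after time, batch and the surrogate variable. Only the replicate block fits the pairing by culture. Symbols were matched to GENCODE release 44 (18451 of 18970 directly, 118 unmatched). The genes named with all values were the called members, the 4 CLK genes, the 5 members with the highest and the 5 with the lowest share, and the 5 with the highest level. The members and the gene lists were chosen with earlier results of these data known.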

Additional observations from a re-analysis of the deposited data

Results flagged for a closer look

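For 5 genes the effects at 3h and 24h differed by a test of the difference itself, the comparison of 24h with 3h in total reads (DESeq2). The log2 differences, 24h minus 3h, were 0.3485 for SRSF1, 0.3606 for HNRNPAB, 0.2327 for HNRNPA2B1, 0.2565 for HNRNPH3 and 0.2445 for HNRNPA3. All 5 calls were lost without the culture S9CC13_R6.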

How the results depend on the processing

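Of 22 member calls, TMM factors kept 22, the fit with no filter 21, edgeR 18, the replicate block 12 and the fit without a surrogate variable 9. The fit without S9CC47_R5 kept 8, the fit without the 3h library of S9CC13_R6 kept 3 and the fit without S9CC13_R6 kept 0. Without S9CC47_R6, which was fitted for the 4 T>C calls only, 0 were kept. Members called in T>C reads at 3h (1 in the report) numbered 0 with the replicate block, with edgeR, without a surrogate variable, without any 1 culture and without the 3h library of S9CC13_R6, a setting chosen after seeing the data. At 24h (3 in the report) leaving out 1 culture gave 0 to 3. For 24h against 3h in T>C reads (0 in the report) the replicate block gave 2, edgeR 1, no surrogate variable 1, leaving out 1 culture 0 to 2 and leaving out that 3h library 1. In total reads at 24h (13 in the report) the replicate block gave 8, no surrogate variable 4, leaving out 1 culture 0 to 7 and leaving out the 3h library 0. For 24h against 3h in total reads (5 in the report) the replicate block gave 10, leaving out 1 culture 0 to 1 and leaving out the 3h library 1. For T>C shares between 24h and 3h (0 in the report), 1 size factor per library gave 7. Without S9CC13_R6 the sign of the fitted value reversed in total reads at 24h against 0h for HNRNPA3 (-0.069), HNRNPF (-0.36), SRSF1 (-0.36) and TRA2B (-0.17), against 0.27, 0.68, 0.49 and 0.32 without S9CC47_R5. At 24h against 3h it reversed for SRSF1 (-0.23, against 0.37 without S9CC47_R5). Mean normalised reads of the remaining cultures were higher at 24h in each of these comparisons. In the culture S9CC47_R5, however, reads of SRSF1, HNRNPF and TRA2B were lower at 24h than at 0h. The cause was not tested. Over all genes, T>C calls at 3h were 216 and 145 without a surrogate variable, T>C calls at 24h 599 and 968 with edgeR, and T>C calls between 24h and 3h 137, with 530 in the replicate block, 373 without a surrogate variable and 267 with edgeR. Total read calls at 3h were 221, with 141 in the replicate block and 118 without a surrogate variable, and between 24h and 3h 631 and 1544 with the replicate block. Total reads without S9CC47_R6 were not run, since no surrogate variable could be estimated. The fewest reads, in MBNL2 and HNRNPCL1, limit what could be seen there.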
